A study of Mus musculus and Homo sapiens with 9 samples.

Results

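Peaks of S9.6, the antibody by which the study mapped R-loops, were compared between mouse embryonic fibroblast (MEF) libraries. Those found in all 4 S9.6 libraries formed a set of 770 genomic sites. The sites were chosen by peak presence alone: each is a wild-type peak that shared at least 1 bp with a peak of Mcm8 knockout cells, of shControl cells and of shDdx5 cells, and none with a no-antibody peak. They made up 770 of the 6481 wild-type peaks, or 11.9% (95% Wilson interval, 11.1 to 12.7%), and all 9 lists of the series together held 102544 peaks. Presence in the lists, and every value that goes with it, chose these sites, so those values are a description. What the annotation and the genome sequence say about the sites was not used to choose them.

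R-loops form when a transcript pairs with its DNA template and leaves the other DNA strand single. They are known to form at promoters with many CpG dinucleotides, where G is more frequent than C on the strand that matches the RNA, and helicases and RNases H remove them. S9.6 recognizes RNA-DNA hybrids, and can also bind double-stranded RNA. In CUT&Tag, a transposase is tethered to the antibody in permeabilized cells and cuts and tags the DNA close by, which is sequenced.

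The MEF libraries were Mcm8 WT, Mcm8 KO, shControl and shDdx5, each with S9.6, and a no-antibody library labelled wildtype, with 1 library per group. By the methods of the study, MEFs came from the trunks of embryos of Mcm8+/- parents on a mixed C57BL/6J and ICR background and were immortalized with SV40 lentivirus. The knockout allele is a CRISPR deletion in Mcm8, which encodes a DNA helicase of the MCM family, and DDX5, an RNA helicase, was lowered with an shRNA adenovirus. The Mcm8 genotype of the shControl and shDdx5 cells is not given in the labels beyond control and Ddx5 knockdown, and the number of embryos behind each library is not given in the sources used here. HEK293 cells, a human embryonic kidney line with wildtype genotype, were profiled with mouse IgG, with anti-FLAG once transfected with FLAG-MCM8, with S9.6, and with S9.6 in cells that received an RNH1 plasmid. In the study RNH1 stands for RNase H1, which degrades the RNA of such hybrids. No MEF library received it, so whether the members hold hybrids was not tested. With no replicates there was no test: intervals cover counting error only, and a difference compares libraries, not conditions.

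Recovered depth was 5729 to 7001 fragments per Mb in the 4 S9.6 MEF libraries and 719.8 in the no-antibody library. A no-antibody peak could need as few as 3 overlapping fragments there, and absence from that list is limited by its lower depth. The S9.6 lists held 6481 (WT), 9605 (KO), 12259 (shControl) and 11768 (shDdx5) peaks. A member lay at the promoter of 3.6% of all protein-coding genes. It did so at 1 of 14 fibroblast marker genes, Vim, and at 0 of 18 markers of epithelial, endothelial, blood, muscle and neural cells, counts near that share, so these lists do not check the cell label.

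Sequences of 8 members are shown here because they stand for the 3 kinds of site described below, all from the GRCm38.p6 (mm10) reference. The first kind is a protein-coding promoter, printed along the direction of transcription, with GC boxes (GGGCGG on either strand, the letters bound by Sp1-type factors) and CCAAT boxes in capitals. Dazap1 is at chr10:80261206-80261505, Eef1g at chr19:8966871-8967070, Sp1 at chr15:102405873-102406172 and Hnrnpul2 at chr19:8819740-8820039, all on the plus strand. Each run ends 20 or 30 bases past the start site. Most such members are rich in CpG, and Dazap1 is less so, with 9 CpG in its 300 bases.
Dazap1: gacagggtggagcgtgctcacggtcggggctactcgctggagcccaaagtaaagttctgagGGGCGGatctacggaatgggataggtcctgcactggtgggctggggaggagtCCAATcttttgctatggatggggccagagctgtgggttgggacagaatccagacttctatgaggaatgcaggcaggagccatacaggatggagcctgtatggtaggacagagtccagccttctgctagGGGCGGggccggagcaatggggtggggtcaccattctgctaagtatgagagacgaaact
Eef1g: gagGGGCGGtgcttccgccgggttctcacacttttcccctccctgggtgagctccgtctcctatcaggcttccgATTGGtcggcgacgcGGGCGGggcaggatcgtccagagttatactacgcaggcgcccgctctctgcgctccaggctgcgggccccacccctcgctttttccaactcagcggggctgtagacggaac
Sp1: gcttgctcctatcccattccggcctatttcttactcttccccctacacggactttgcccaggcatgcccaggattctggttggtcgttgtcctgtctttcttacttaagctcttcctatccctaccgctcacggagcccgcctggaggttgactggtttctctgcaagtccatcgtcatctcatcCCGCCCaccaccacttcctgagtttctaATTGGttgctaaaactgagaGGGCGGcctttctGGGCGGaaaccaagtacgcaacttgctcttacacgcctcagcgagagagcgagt
Hnrnpul2: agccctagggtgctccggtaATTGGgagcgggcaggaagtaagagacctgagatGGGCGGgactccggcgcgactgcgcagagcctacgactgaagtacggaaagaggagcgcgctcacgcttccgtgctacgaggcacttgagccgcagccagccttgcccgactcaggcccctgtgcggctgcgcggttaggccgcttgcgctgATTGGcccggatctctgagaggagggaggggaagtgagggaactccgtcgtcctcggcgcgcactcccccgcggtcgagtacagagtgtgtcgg

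The second kind is a very strong site whose bases recur in other places of the genome. The peak in an intron of Camk1d (chr2:5379094-5379259, plus strand) and a peak between genes on chromosome 3 (chr3:5860413-5860578, minus strand) hold an identical stretch of 86 bases, in capitals. The peak at Gm23935 (chr16:11144035-11144184, plus strand), a miRNA annotation in an intron of Zc3h7a, holds 27 CpG dinucleotides in 150 bases, in capitals, and is 80.0% G or C.
Camk1d intron: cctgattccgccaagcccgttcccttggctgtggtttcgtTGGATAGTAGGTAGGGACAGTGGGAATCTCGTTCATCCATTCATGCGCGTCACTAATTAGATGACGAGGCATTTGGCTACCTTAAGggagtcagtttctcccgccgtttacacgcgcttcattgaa
chromosome 3 site: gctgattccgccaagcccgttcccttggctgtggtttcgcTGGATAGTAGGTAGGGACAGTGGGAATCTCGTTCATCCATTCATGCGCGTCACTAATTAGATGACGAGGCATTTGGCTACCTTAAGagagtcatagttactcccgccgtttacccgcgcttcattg
Gm23935: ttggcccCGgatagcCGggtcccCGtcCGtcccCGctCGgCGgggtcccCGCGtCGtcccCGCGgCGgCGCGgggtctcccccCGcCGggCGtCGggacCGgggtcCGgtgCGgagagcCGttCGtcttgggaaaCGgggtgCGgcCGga

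The third kind is a site away from promoters with an AP-1 motif, in capitals. The motif was searched as TGANTCA with any base at N, a loose form of the letters bound by Fos and Jun proteins. The site at chr19:37993992-37994071 (plus strand) lies in an intron of Myof, which encodes a membrane repair protein, and its motif is 10 bp from the WT summit. The printed match has T at N, and near-copies of the bases around it come before it in the run. It was chosen for printing after its values were seen.
Myof intron: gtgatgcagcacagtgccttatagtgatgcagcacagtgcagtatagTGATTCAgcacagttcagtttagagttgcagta

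Of the WT peaks without a no-antibody peak, 3910 had a peak in 0 of the other 3 S9.6 lists, 999 in 1, 722 in 2 and 770 in all 3. A further 80 WT peaks overlapped a no-antibody peak, and 45 of them met the rest of the rule and were left out by it. Stronger WT peaks were more often members, with 31 members among the weakest 1621 WT peaks by p and 523 among the strongest 1620, or 32.3%. Members were 68 of the 100 strongest WT peaks but 10 of the strongest 20. The members covered 772 KO peaks (8.04% of that list), 771 shControl peaks (6.29%) and 771 shDdx5 peaks (6.55%).

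The number of members with a q of at most 0.05 was 600 for WT, 672 for KO, 616 for shControl and 745 for shDdx5. In all 4 lists together 465 members reached it, and 2 members reached it in none. The WT peak and the strongest overlapping peak of each other list had bases common to all 4 at 754 members, with a median of 277.5 bp. Summits were less fixed, since the median distance from the WT summit was 110 bp in KO, 101 bp in shControl and 109.5 bp in shDdx5. All 4 summits lay within 100 bp of each other at 117 members.

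The rule is a threshold, and some members passed it narrowly. The member at the shared promoter of Mfsd11 and Srsf2 had 2 bp in common with the shControl peak, and a member in an intron of Pura had 4 bp. Just outside, a WT peak at Acaca ended 1 bp short of a KO peak and a WT peak at Atf2 ended 4 bp short. Of the 722 WT peaks found in 2 other lists, 21 lay within 100 bp of a peak of the missing list and 62 within 1000 bp.

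Most members were protein-coding promoters. A start site lay within 1 kb of the midpoint of 670 members, or 87% (84.5 to 89.2%), compared with 18% of WT peaks found in 0 other lists, 48.6% of those in 1 and 68.7% of those in 2. The difference to peaks in 0 other lists was 69.0 percentage points (66.2 to 71.5) and to peaks in 2 other lists 18.3 points (14.2 to 22.4). Protein-coding start sites accounted for 652 members. The remaining 18 promoter members were at noncoding start sites, among them 4 lincRNAs, 3 snRNAs and 2 miRNA annotations.

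The promoter share of members did not rise steadily with WT peak strength. Members of the 4 equal p classes of WT peaks, from weak to strong, were at promoters in 90.3, 72.1, 86.5 and 88.9% of cases, while peaks in 0 other lists were so in 17.4, 16.9, 18.2 and 22.1%. The lowest member share rested on 68 members (60.4 to 81.3%). Peaks in 1 other list were at promoters in 46.7, 38.5, 47.8 and 60.0%, and those in 2 in 68.9, 61.5, 68.5 and 71.1%. The share was thus highest among the strongest peaks in each class but the members. Among the 45 peaks that a no-antibody peak removed, 32 were at promoters.

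Divergent start sites are those where protein-coding genes begin close together on opposite strands. They were at 133 members (17.3%), at 10.9% of WT peaks found in 2 other lists, at 4.90% of those in 1 and at 0.818% of those in 0. The same order held among promoter peaks alone. Divergent sites were at 133 of 670 promoter members, 79 of 496 promoter peaks in 2 other lists, 49 of 486 in 1 and 32 of 703 in 0. Examples were Orc6 with Vps35, Mcm4 with Prkdc, Hnrnpul2 with Ttc9c and Eif2s1 with Atp6v1d. At such members the antibody signal could not be assigned to either gene. The summit of a member lay between genes in 36.6% of cases, in the untranslated part of exon 1 in 26.9%, in an intron in 26.1%, in a noncoding exon in 5.45% and in a coding exon in 4.42%. Peaks in 0 other lists had 55.1% of their summits in introns.

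**Figure D1:**
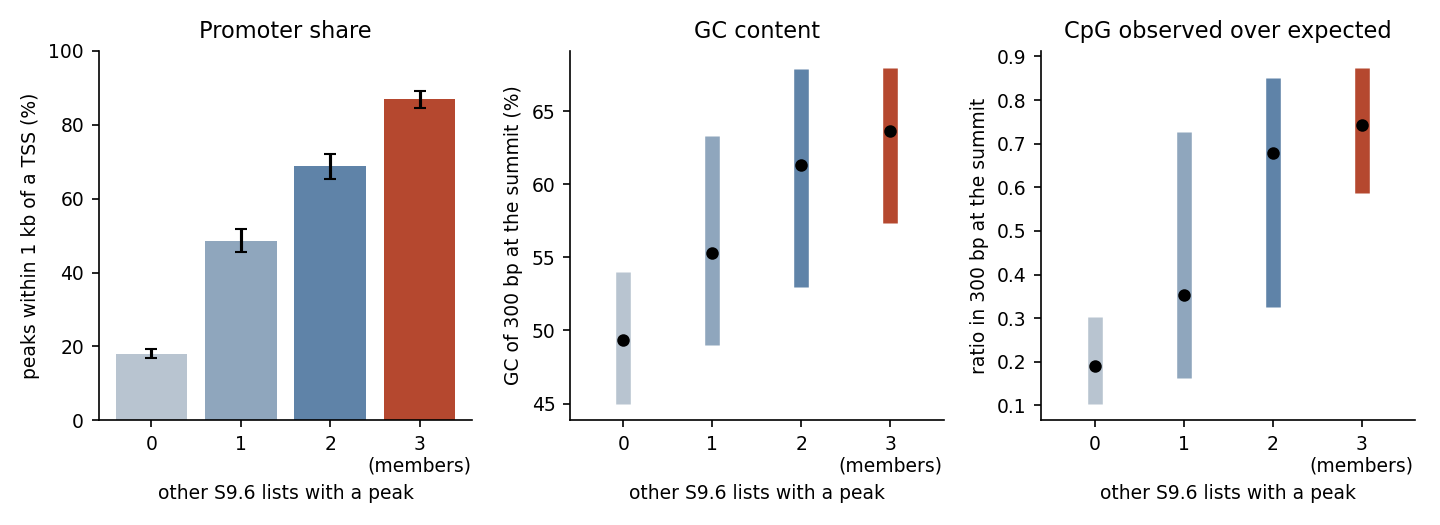
WT peaks grouped by the number of other S9.6 lists (0 to 3, with 3 being the members) against the promoter share in percent with 95% Wilson intervals, the GC percent and the CpG observed over expected of 300 bp at the summit (median and quartiles). The promoter share rises from 18% to 87%, and the median GC from 49.3% to 63.7%.

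The sequence of members was rich in G, C and CpG. In 300 bp centred on the WT summit, median GC was 63.7% (quartiles 57.3 and 68.0) for members and 49.3% for WT peaks in 0 other lists. The ratio of observed to expected CpG had a median of 0.742 against 0.190, and 569 members (73.9%) were at 0.6 or more against 7.06%. Within promoters alone, members had a median GC of 64.3% and peaks in 0 other lists 55.3%, while promoter peaks in 2 other lists were as rich (64.7%). Repeat-masked sequence filled 50% or more of the window at 12 members (1.56%) and at 11.2% of peaks in 0 other lists.

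GC boxes, which all 4 printed promoters carry, were in the 300 bp window of 77.3% of promoter members (74.0 to 80.3%). They were in 69.2% of promoter peaks found in 2 other lists, in 30.01% of those in 0 and in 48.0% of 16522 protein-coding promoters of RefSeq of the same length. CCAAT, searched on both strands, was in 45.4% of promoter members against 28.3% of promoter peaks in 0 other lists and 38.7% of RefSeq promoters, and the member interval (41.6 to 49.2%) overlapped that of promoter peaks in 2 other lists (39.3%, 35.1 to 43.7%). TATAAA was in 3.28% of promoter members and 12.9% of RefSeq promoters, and was as scarce in promoter peaks of 2 other lists (2.62%) and of 1 (3.91%). These letters were searched with no regard to position, GC boxes come more often in GC-rich sequence, and a match is not a binding site.

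Summits clustered at the start site. At 643 members with a protein-coding start site within 1 kb of the summit, the median summit was 40 bases before the start (quartiles -183 and 67.5), and 61.0% were upstream (57.1 to 64.7%). Only 5.13% of these summits lay more than 300 bp into the gene, compared with 26.8% of 455 WT promoter peaks found in 0 other lists. Promoter peaks in 2 other lists were placed much as members, with 6.03% past 300 bp and 58.6% upstream. The Eef1g summit was 87 bases before its start site, that of Sp1 220 before and that of Gins2 34 after.

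**Figure D2:**
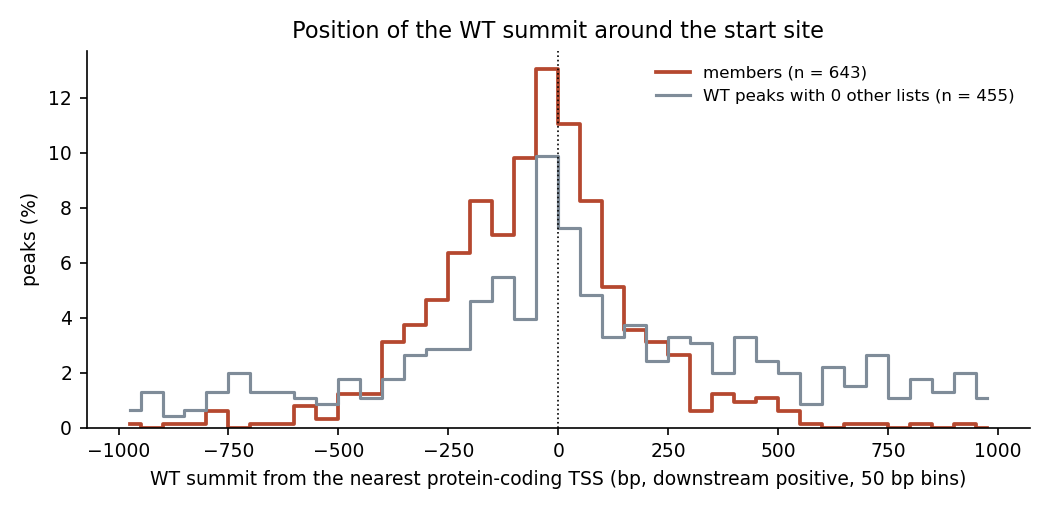
Distance of the WT summit from the nearest protein-coding start site in bp, signed along transcription, as the share of promoter peaks in 50 bp bins for members and for WT peaks in 0 other lists. Members peak just upstream of the start (median -40), while the other peaks (median 14) have a longer tail into the gene.

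The G excess that is known from R-loop promoters was present downstream of the start. Members with annotated protein-coding starts on 1 strand only were taken, and noncoding starts on the other strand were not considered. In the 500 bp after the start, G exceeded C on the RNA-like strand at 78.0% of these 510 members (74.2 to 81.4%). The share was 67.1% for peaks in 0 other lists and 66.8% of all protein-coding genes. The median skew, (G-C)/(G+C), was 0.07 at members and 0.05 over all genes. Before the start, the median skew was -0.007 at members and -0.008 over all genes, so no G excess was seen there. Yet 63.3% of these members had their summit before the start. Paired runs of G lay on the sense strand of 54.9% of these members and on the antisense strand of 36.7%, while all genes had 33.3 and 24.97%. Peaks in 2 other lists were like members, at 53.5 and 37.9%, and those in 0 had 43.5 and 33.6%. Peaks in 2 other lists had a median skew of 0.07 as well, with G in excess at 71.9% (67.3 to 76.2%), an interval that overlaps that of members.

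Members were spread over the autosomes. Chromosome 11, the richest per Mb, held 83 members (0.680 per Mb). The X chromosome held 1 member and Y none. Peaks on X were few in WT (32, or 0.494% of its list) and KO (52) and more in shControl (187) and shDdx5 (142).

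The height of a member in each list was read as fold enrichment, which MACS2 gives as summit fragments plus 1 over local background plus 1. Median fold enrichment was 4.17 (WT), 4.48 (KO), 4.24 (shControl) and 4.91 (shDdx5). Fold 4 or more in all 4 lists was reached by 273 members, fold 6 by 9 and fold 10 by 8. Most members were thus modest peaks, and the 8 strong ones stood apart from the other 762.

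**Figure D3:**
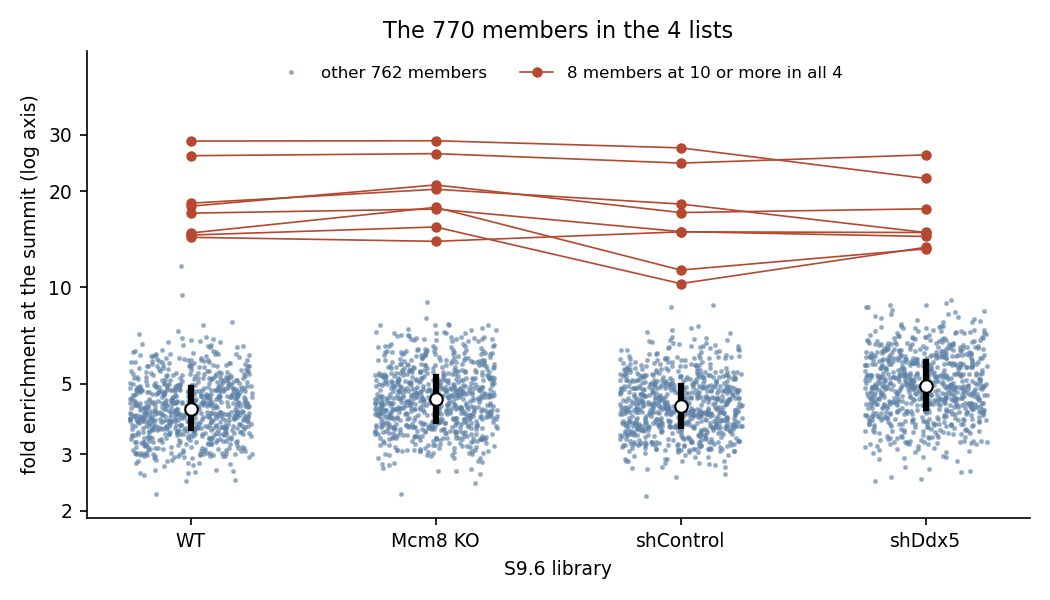
Fold enrichment at the summit (log axis) of the 770 members in the 4 S9.6 MEF libraries, with the median and quartiles as a white point and black bar. Red lines join the 8 members at fold 10 or more in all 4 lists, while the medians lie between 4.17 and 4.91.

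Ranks were only partly kept between lists. Spearman's rho of fold enrichment over the 770 members was 0.45 to 0.51 for the 6 pairs of lists, a description over sites that share their libraries. With heights scaled by depth instead, as summit fragments over the genome-wide background of the library, rho was 0.57 to 0.68. The depth-scaled medians were 9.18 (WT), 11.5 (KO), 8.99 (shControl) and 11.4 (shDdx5).

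For KO against WT, the comparison by which the study asked how loss of MCM8 alters R-loops, members were slightly higher in KO. The median log2 ratio of fold enrichment was 0.09, and 61.9% of members were higher in KO. A difference of at least 1.5 times was seen upward at 50 members (6.49%), where the same held for 5.16% of all 1588 WT peaks with a KO peak, and downward at 9 members (1.17%), where it held for 1.57%. Members were 770 of those 1588 peaks, so much of this background is the members themselves. A comparison with the other shared peaks alone was not made. Depth-scaled heights gave a median of 0.31, with 168 members at least 1.5 times higher (21.8%, background 18.4%) and 6 lower (0.779%, background 1.2%). The median over all shared peaks, of which members are a part, was 0.08 by fold and 0.22 by depth-scaled height, and the size of the upward shift depended on the scale.

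For shDdx5 against shControl, which addresses knockdown of DDX5, members were higher in shDdx5 by a median log2 of 0.20 in fold enrichment, with 73.8% of members above shControl. At least 1.5 times higher were 87 members (11.3%), beside 8.16% of all 2376 shControl peaks with a shDdx5 peak, and 6 were lower (0.779%), beside 1.3%. This background also holds the peaks of members, so it is not independent of them. By depth-scaled height 180 members were higher (23.4%, background 14.9%) and 10 lower (1.3%, background 2.87%), with a median of 0.31 where all shared peaks had 0.15. The 670 promoter members had a median of 0.22 by fold with 76.3% higher (72.9 to 79.3%), and the 100 other members 0.04 with 57.0% higher (47.2 to 66.3%). With 1 library each, knockdown, infection and library cannot be told apart.

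At least 1.5 times higher in both comparisons were 5 members by fold and 46 by depth-scaled height, and 0 were lower in both by either scale. WT and shControl, the 2 control libraries, had a median log2 of 0.03 by fold and -0.03 by depth-scaled height. KO and shDdx5 were each above their own control at 356 members by fold and below it at 81. In the single comparisons, 50 members were at least 1.5 times higher in KO and 87 in shDdx5 by fold. By depth-scaled height they were 168 and 180. Joint counts were not made over all shared peaks, so whether members rose together more often than such peaks was not tested.

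**Figure D4:**
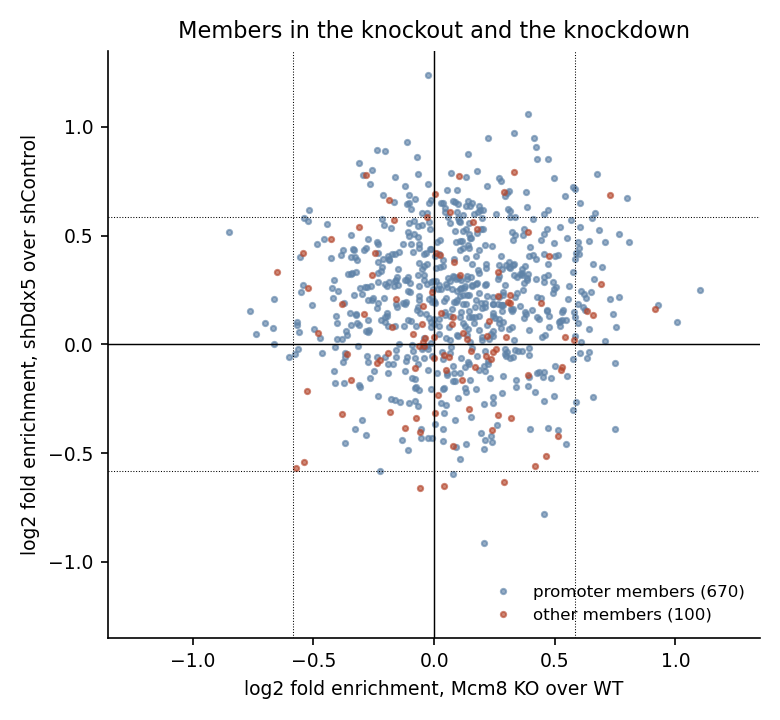
Log2 ratio of fold enrichment of each member for Mcm8 KO over WT (horizontal) and for shDdx5 over shControl (vertical), with 670 promoter members in blue, 100 other members in red and dotted lines at 1.5 times. The points centre above 0 on both axes (medians 0.09 and 0.20), and 5 members lie past the upper line on both.

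The largest single changes rested on few fragments. Pip5k1c, which encodes a kinase that makes PIP2, had 13 fragments at the summit (WT), 28 (KO), 14 (shControl) and 26 (shDdx5). Its fold enrichment was 2.68 in WT and 5.76 in KO, a log2 ratio of 1.10, and its depth-scaled ratio was 2.51 (1.26 to 5.29). Ogg1, the 8-oxoguanine DNA glycosylase, had 12, 27, 20 and 24 fragments in the same order, with a log2 ratio of 0.93. Cnnm2, a magnesium transport protein, had 8, 17, 13 and 18 fragments and a log2 ratio of 1.01. WT was the lowest library at each of these 3 members by depth-scaled height.

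The largest falls in KO were at Rabif (log2 -0.85), Rab5a of early endosomes (-0.76) and Actn1, an actin crosslinker (-0.74), with depth-scaled intervals that include no change. For shDdx5, Limk1, a kinase of the actin regulator cofilin, had 20, 22, 16 and 47 fragments in WT, KO, shControl and shDdx5. Its log2 ratio was 1.06, and its depth-scaled ratio 2.54 (1.41 to 4.798). 1700030J22Rik had 18, 17, 7 and 27 fragments, a log2 ratio of 1.24 and a depth-scaled ratio of 3.33 (1.42 to 9.07), with shControl lowest and shDdx5 highest. Gm11410, a processed pseudogene, had a log2 ratio of 0.97 and a depth-scaled ratio of 2.42 (1.14 to 5.58), and lay 1319 bp from a no-antibody peak. The lowest ratios were at Tcf7l1, a Wnt pathway repressor (-0.91), Iqsec1 (-0.78) and a site between genes at chr11:79738859-79739347 (-0.66), again with depth-scaled intervals that include no change. These members were named for their extremes, so their ratios are a description.

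The 8 strong members were different in kind. Kctd16, in an intron (chr18:40308037-40308437), had fold 28.7 (WT), 28.8 (KO), 27.3 (shControl) and 21.9 (shDdx5). Gm23935 (chr16:11143933-11144295), printed above, had 25.8, 26.2, 24.5 and 26.0 from 216, 176, 139 and 206 fragments. A site at chr11:54140029-54140643 had 18.3, 20.3, 18.2 and 14.9, and 68.7% of its window was masked as repeat. The chromosome 3 site (chr3:5860346-5860823) had 17.9, 20.9, 17.1 and 17.6. A site at chr19:61266771-61267203 had 17.1, 17.6, 14.9 and 14.4.

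The Camk1d intron site (chr2:5379059-5379461) had fold 14.8, 17.8, 11.3 and 13.2, and a site in an intron of Cdk8, a Mediator kinase (chr5:146260993-146261372), 14.6, 15.4, 10.3 and 13.3. A site at chr15:75086677-75087024 had 14.3, 13.9, 14.9 and 14.8 and lay 657 bp from a no-antibody peak, the only one of the 8 with such a peak within 100 kb. No strong member passed 1.5 times in fold in either comparison. By depth-scaled height, Kctd16 was at 0.636 (0.497 to 0.813) and the chromosome 11 site at 0.658 (0.448 to 0.961) of shControl in shDdx5, while Gm23935 was at 1.28 (1.03 to 1.60). Of the 8, only Gm23935 was within 1 kb of an annotated start site.

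Strong members had nearly the same summit in every list. The median distance from the WT summit was 2.5 bp in KO, 3.5 bp in shControl and 2 bp in shDdx5, with a highest of 40 bp, against about 100 bp over all members. Words of 32 bases from their window recurred elsewhere on the assembled chromosomes at 7 of the 8, and at 50 of the other 762 members (6.56%, 5.01 to 8.55%). Kctd16 was the strong member with none. WT peaks in 0 other lists had recurring words in 20.9% of cases and those in 2 in 10.4%, so the members below fold 10 were the class with the fewest.

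At Gm23935, 90.3% of the words occurred elsewhere, 210 of them together at chr9:56223637-56223906. The chromosome 15 site had 43.9%, the chromosome 11 site 37.5%, the chromosome 3 site 37.2%, Camk1d 22.3%, Cdk8 19.7% and the chromosome 19 site 1.12%. Words of 24 bases from the human rRNA gene unit were found in 4 of the 8: Gm23935 with 47 of 277 words, the chromosome 3 site with 104, Camk1d with 87 and Cdk8 with 106. They matched positions 1332 to 6129 bp after the 5.8S gene, on the side where the 28S rRNA gene lies. The other 762 members had such words in 4 cases (0.525%, 0.204 to 1.34%), each with 2 to 10 words. No member shared a word with the annotated mouse rRNA sequences searched, Rn18s-rs5 (3652 words) and Rn28s1 (794 words). These are short beside the 27110 words of the human unit. Both word searches were added after the folds had been seen. How the reads of these sites were placed among copies is not stated in the sources used here, and the part of copies in their height was not tested.

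Gm10801 (chr2:98662533-98662813) and Sfi1, a centrosome gene, were high in fragments but not in fold. Gm10801 had 98, 87, 107 and 101 fragments in WT, KO, shControl and shDdx5 with fold 6.85, 6.85, 5.94 and 6.45, a GC of 33.0% and recurring words in 56.5% of its window. Sfi1 had 109, 93, 119 and 150 fragments with fold 2.26, 2.25, 2.22 and 2.55. Local background was therefore high at both, and for Sfi1 the fold was the lowest of all members in WT.

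Strong promoter members came from varied pathways. Dazap1, an RNA-binding protein, shared its peak with Gamt and had fold 5.39, 5.38, 5.21 and 6.38 in WT, KO, shControl and shDdx5, from 39, 36, 36 and 60 fragments. Camsap1, which binds microtubule minus ends, had 5.94, 6.37, 7.58 and 7.78. Tsga10, a sperm protein, had 6.93, 6.38, 6.97 and 7.92. Pknox1, a homeobox factor, had 5.65, 6.18, 7.24 and 6.29, and Rap2a, a small GTPase, 6.61, 5.47, 5.36 and 6.18. The highest of the 4 libraries was shDdx5 at Dazap1, Camsap1 and Tsga10, shControl at Pknox1 and WT at Rap2a.

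Regulators of transcription were among them. Ell, an elongation factor of RNA polymerase II, had fold 4.77, 4.99, 5.13 and 6.28, and Sp1, a factor that binds GC boxes, 4.77, 5.15, 4.89 and 6.01. Lrp8, a reelin receptor, had 6.08, 5.62, 5.73 and 5.50, and Rab40c 5.37, 5.90, 5.802 and 6.79. The fragment intervals of the 4 libraries, not scaled for depth, overlapped at each of these promoters. Scaled for depth, Rab40c was 1.66 times as high in shDdx5 as in shControl (1.03 to 2.76). At Sp1 there were 26 in WT (16.98 to 38.1) and 42 in shDdx5 (30.3 to 56.8).

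Higher promoter members did not have more CpG. When the 652 protein-coding promoter members were ordered by their lowest depth-scaled height into 4 classes of 163, median GC was 64.3, 65, 64.3 and 64.0% from low to high. CpG-rich windows were 89.6, 84.7, 81.0 and 76.7% in that order, and median width went from 429 to 553 bp. The widest members were a site between genes on chromosome 2 (1916 bp), the Klf13 promoter (1619 bp) and a site between genes on chromosome 13 (1511 bp).

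Member promoters belonged to 789 of 21911 protein-coding genes, or 3.6%. Among 61 splicing factors and hnRNPs there were 9 (14.8%, 7.96 to 25.7%): Hnrnph3, Hnrnpk, Hnrnpl, Hnrnpul1, Hnrnpul2, Srsf2, Sf3b2, Prpf4 and Snrpd3. Hnrnpul2 had fold 4.64, 5.78, 5.04 and 7.58 in WT, KO, shControl and shDdx5, and Hnrnpl 4.52, 4.23, 4.85 and 5.23. Hnrnpk had 6.004, 4.06, 4.88 and 4.81, with WT highest. The share was also high in whole lists: a WT promoter peak lay at 19 of these 61 genes and at 2479 of all 21911. A shDdx5 peak lay at 34 of the 61 and at 5063 of all genes. A high share was therefore not particular to members. For the families below, WT promoter peaks were at 6 of 26 immediate-early genes and 11 of 47 translation factors. They were at 9 of 44 DNA replication genes and 20 of 45 chaperones. All of these gene lists were drawn up with earlier results of these data known, so the counts are a description.

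Immediate-early genes, which respond within minutes to growth signals, had 4 of 26 (15.4%, 6.15 to 33.5%). Jun and Jund encode subunits of AP-1, as does Fosl2, and Egr1 is a zinc finger factor. Jund had fold 4.03, 4.34, 3.76 and 4.65, Jun 3.91, 4.46, 4.73 and 4.36, Fosl2 3.10, 3.64, 4.84 and 4.92, and Egr1 3.54, 3.35, 4.49 and 4.30. At Egr1 the summit was 530 bp into the gene, and shControl and shDdx5 were higher than WT and KO at both Egr1 and Fosl2.

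Translation factors had 5 of 47 (10.6%, 4.63 to 22.6%): Eif2s1, Eif5, Eif5a, Eef1a1 and Eef1g. Eif5a, which helps ribosomes past difficult peptides, had fold 4.76, 6.37, 5.13 and 6.72. Eef1a1, which delivers aminoacyl-tRNA, had 3.88, 4.92, 4.17 and 5.17, and Eef1g, printed above, 3.34, 4.62, 3.97 and 4.42. KO was above WT and shDdx5 above shControl at these 3, with depth-scaled intervals that include no change. The same order held at 356 of the 770 members by fold, so it was not particular to these genes. Eif2s1, a subunit of the factor that brings the initiator tRNA, had 4.003, 3.98, 6.62 and 6.37.

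DNA replication genes had 4 of 44 (9.09%, 3.59 to 21.2%). Gins2, a subunit of the replicative helicase, had fold 5.13, 5.75, 6.73 and 7.20, Orc6 of the origin recognition complex 5.89, 6.23, 4.88 and 6.41, Mcm4, also of the helicase, 5.15, 6.45, 4.32 and 6.02, and Pcna, the sliding clamp, 3.84, 4.85, 5.23 and 4.56. At Mcm4 and Orc6 the peak also lies at Prkdc and Vps35. Chaperones had 3 of 45 (6.67%, 2.29 to 17.9%). Hspa8, the constitutive Hsp70, had fold 3.90, 6.20, 5.15 and 7.83 from 13, 21, 15 and 31 fragments, with Dnajb1 at 4.20, 4.52, 3.47 and 4.83, and Cct3, which shares its promoter with Tsacc, at 3.94, 4.803, 4.91 and 4.43.

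The counts in other lists were near the share of all genes or rested on 1 gene. R-loop processing genes had 1 of 40 (2.50%, 0.443 to 12.9%), which is Srsf2, and cytosolic ribosomal protein genes 1 of 79 (1.27%, 0.224 to 6.83%), which is Rps23 at fold 4.48, 2.83, 4.91 and 4.90. Of 11 snoRNA host genes 1 was present (9.09%, 1.62 to 37.7%), Gas5, whose peak also lies at Zbtb37, at 3.48, 4.57, 3.91 and 5.18. Core clustered histone genes had 0 of 56, with a Wilson interval that reaches 6.42%. The fibroblast gene Vim had fold 3.14, 4.11, 3.76 and 3.29.

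The genes at the centre of the study were not members, with 1 exception. Chchd7, which shares its promoter with Plag1, had fold 4.17 (WT), 6.03 (KO), 6.01 (shControl) and 6.66 (shDdx5). Ddx5 had no WT peak but had fold 3.94 in KO, 4.02 in shControl and 3.69 in shDdx5. Mcm8 had a peak in KO (3.31) and shDdx5 (4.31), Cdk4 in the same lists (3.75 and 3.73), Armc10 likewise (7.35 and 7.82) and Dhx9 in shControl alone (4.05). None of these promoters had a no-antibody peak. Armc10 was thus higher in its 2 lists than most members, and was not one because WT and shControl had no peak there.

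The 100 members away from start sites lay between genes (56), in introns (41) or in exons, and 27 of them were 1 to 3 kb from a start site. Their median GC was 52.3% and their CpG ratio 0.225. Median fold was 4.01 (WT), 4.18 (KO), 4.03 (shControl) and 4.24 (shDdx5). The AP-1 motif was in the 300 bp window of 28 of the 100 (20.1 to 37.5%), and in 4.93% of promoter members. Matches with different bases at N were not counted apart. Among WT peaks away from start sites, the share was 11.7% with 0 other lists (10.6 to 12.9%), 22.4% with 1 (19.0 to 26.2%) and 31.4% with 2 (25.7 to 37.7%). Members therefore had it more often than peaks of WT alone, while their interval overlapped that of peaks in 2 other lists.

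These 28 sites were of ordinary height, with a median depth-scaled height of 9.18 (WT), 9.95 (KO), 8.30 (shControl) and 9.86 (shDdx5). The motif was a median of 69.5 bp from the summit and within 50 bp of it at 10. They included introns of Ank2, Trim8, Peg3, Camk2d, Myof and Tnks. The printed Myof site (chr19:37993775-37994451) had fold 3.27, 3.87, 5.37 and 4.08 in WT, KO, shControl and shDdx5, and a site between genes at chr8:125343975-125344387, with its motif 3 bp from the summit, 4.24, 4.09, 3.81 and 4.06. All 28 were below fold 10 in WT.

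The no-antibody list was used by the rule and no member overlaps it, but nearness was not fixed by it. Of the 770 members, 9 had a no-antibody peak within 1 kb and 31 within 10 kb (4.03%, 2.85 to 5.66%). The median gap was 148270 bp.

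HEK293 lists, which the rule did not use, gave an independent set of peaks at the same genes. By shared symbol, 728 of the 789 genes had a human partner. An S9.6 peak lay at the start site of 73.5% of these in HEK293 cells (70.2 to 76.6%), compared with 66.2% of genes whose WT promoter peak was in 2 other lists, 37.6% of those in 0 and 28.7% of genes without a WT promoter peak. The difference to genes with 0 other lists was 35.9 points (30.6 to 40.9). After the RNH1 plasmid the share was 68.8%, beside 57.1% of genes with 2 other lists and 33.1% of those with 0. A peak in this list was thus nearly as frequent at member genes as an S9.6 peak without the plasmid.

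FLAG-MCM8 peaks were at 33.8% of the member genes (30.4 to 37.3%) and 26.2% of genes with 2 other lists (22.6 to 30.2%). They were at 16.02% of genes with 0 other lists and 13.2% of all matched genes. The difference between member genes and genes with 0 other lists was 17.8 points (13.1 to 22.3). The mouse IgG control had peaks at 11.1% against 6.81%, a difference of 4.31 points (1.11 to 7.404), and moved in the same direction. With peaks that overlap an IgG peak left out, the shares at member genes and at genes with 0 other lists were 32 and 15.7% for FLAG-MCM8, 71.7 and 36.3% for S9.6, and 66.2 and 32.04% for RNH1. Peaks in all 3 of the FLAG-MCM8, S9.6 and RNH1 lists were at 195 member genes (26.8%, 23.7 to 30.1%), and 169 of them had no IgG peak. Genes with 0 other lists had peaks in all 3 at 7.18% (5.30 to 9.67%). Species, cells and calling threshold differ from the MEF lists, so heights were not compared.

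**Figure D5:**
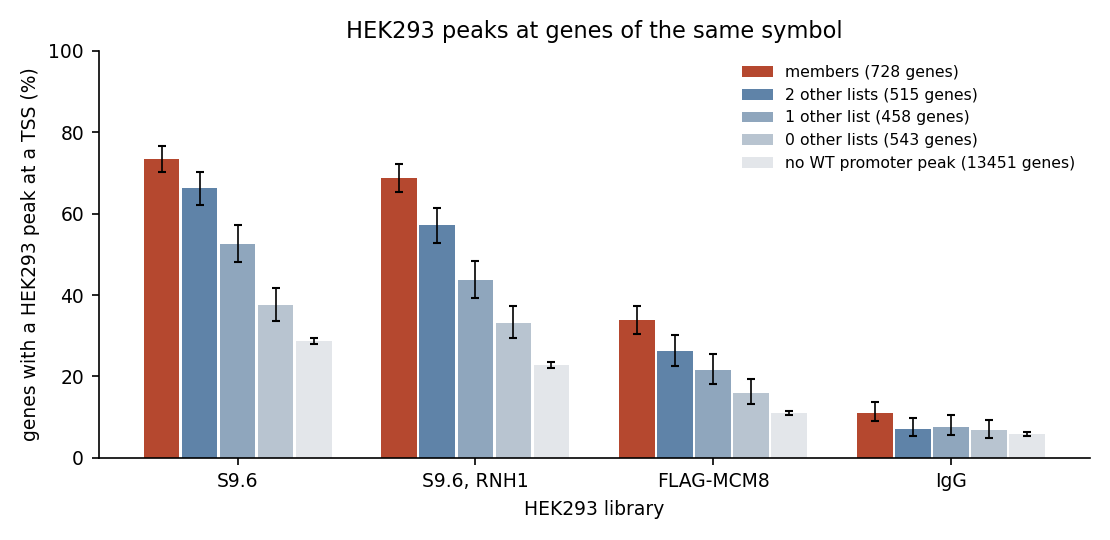
Percent of mouse genes, matched by symbol to human, with a peak of each HEK293 list at a start site, by the number of other S9.6 MEF lists of the WT promoter peak or its absence, with 95% Wilson intervals. Shares rise toward members in S9.6 (73.5%), RNH1 (68.8%) and FLAG-MCM8 (33.8%), and the IgG share is 11.1%.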

How the data were processed

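CUT&Tag peak lists of 9 libraries were used. The authors trimmed and aligned the reads (mm10 for MEFs, hg38 for HEK293) and called peaks with MACS2, 1 list per library, in MEFs without the no-antibody library as input. The deposited processing notes name version 2.1.2 and the methods of the study a later one. The authors gave each peak a fold enrichment (a ratio), −log10 p and −log10 q, and a deposited score that was not used. MEF peaks have a −log10 p of at least 3 and HEK293 peaks of at least 5.

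Summit fragments were recovered as whole numbers from fold and p for at least 99.9% of peaks, and depth as the genome-wide background over the shortest peak, which is relative. This step was tested on simulated data. Peaks overlapped when they shared 1 bp, a promoter was a midpoint within 1 kb of a GENCODE start site, and windows were 300 bp. Sequences came from GRCm38.p6 and promoters of RefSeq. Shares have 95% Wilson and differences Newcombe intervals. Depth limits each height: the lowest peaks rest on 6 or 7 fragments in the S9.6 MEF lists.

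The members and the gene lists were chosen with earlier results of these data known. Named regions were those with the highest lowest −log10 q, the largest ratios, the widest, those at the threshold, and genes of the lists. The 12 strongest protein-coding promoters, the printed AP-1 site and the word searches were added after values were seen. Alternatives were overlap, q, fold, start site window, scale, sequence window and anchor list. Python 3.11.15, numpy 2.4.6, pandas 2.3.3, scipy 1.17.1, pysam 0.24.0 and matplotlib 3.10.9 were used.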

Additional observations from a re-analysis of the deposited data

How the results depend on the processing

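Of 46 alternative values, 27 were classed as the same as the main value and 19 as moved. Most of these values are counts or shares, which have no direction. The number of members was 370 when peaks had to share at least 50% of each other's length, 465 with a q of 0.05 or lower in every list and 273 with a fold of at least 4 in every list. It was 855 with peaks within 1 kb counted, of which 761 were members, 815 with no-antibody peaks kept, 659 with 6481 peaks from each list, and 770, 771 and 787 when counted from KO, shControl and shDdx5. The promoter share was 90.5% under the q limit, 91.9% under the fold limit, 83.9% with start sites within 500 bp and 90.5% within 3 kb. With depth-scaled height, 79.5% of members were higher in KO and 168 at least 1.5 times so, and 78.8% were higher in shDdx5, with 180 at least 1.5 times higher and 10 lower. GC boxes, in 70.1% of members by 300 bp, were in 78.7% by whole peak and in 77.3% of promoter members alone, and CCAAT, in 43.0% by 300 bp, was in 54.8% by whole peak. With HEK293 start sites within 500 bp, the shares were 68.8% for S9.6, 64.1% for RNH1, 29.3% for FLAG-MCM8 and 7.28% for IgG. Wider windows hold more matches by construction, and the cause of the other shifts was not tested. No paired analysis was possible because each group had 1 library. Depth limits single members, whose heights rest on few fragments, and no replicate spread could be given.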
